A study of Mus musculus with 15 samples.

Results

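Microglia, the resident macrophages of brain tissue, were examined in single-nucleus RNA-seq (snRNA-seq) of punches enriched for the dorsal hippocampal formation (dHF) of 15 female mice. A nucleus was taken as microglial when it held at least 400 detected genes, at least 1 UMI (unique molecular identifier, a counted transcript molecule) of Csf1r, at least 2 UMIs of Inpp5d, at most 1 UMI of Mrc1 and F13a1 together, and none of Gad1 or Gad2. This rule selected 3853 of the 133986 nuclei with at least 400 genes, out of 134019 barcodes in all. Each mouse gave between 144 and 331 microglial nuclei.

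The mice were wild-type C57BL/6J females in 3 groups, named as in the sample labels. The NP group held 6 virgin nulliparous mice matched in age to the mothers, with 1395 microglial nuclei. The ControlPP group held 4 mothers with an undisturbed postpartum period (1192 nuclei), and the StressPP group held 5 mothers that had received limited nesting material and were separated daily from their pups late in the postpartum period (1266 nuclei). Each library came from pooled tissue punches of a single mouse, so the mouse was the replicate. The paper states that the punches also took in parts of cortex, thalamus and ventral hippocampus. It removed neuronal clusters from outside the dHF, and choroid plexus, ependymal and leptomeningeal cells. No such removal was made here, so the microglia, and the nuclei they are counted among, may include tissue outside the dHF. Of 3 batches given by the labels, batch 1 held 2 NP mice, 1 StressPP mouse and no ControlPP mouse, and batches 2 and 3 had 2 mice from each of the groups.

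Microglia depend on signalling through the CSF1 receptor (Csf1r) and on the transcription factor PU.1 (Spi1), and TGF-beta signalling maintains their adult gene programme, which includes the purinergic receptor P2ry12, Tmem119, the fractalkine receptor Cx3cr1 and Sall1. In the resting state their processes survey the tissue, and they supply complement C1q and take up debris and synaptic material. Activated states are known by other gene sets, such as the disease-associated set (Apoe, Cst7, Spp1), the interferon-response set and the genes of antigen presentation. Border-associated macrophages of the meninges and vessels share much of this machinery but carry Mrc1, F13a1, Cd163 and Lyve1. Because nuclei were profiled, the values reflect nuclear RNA.

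Libraries held 40602582 to 96211264 UMIs. A microglial nucleus was shallower than the others, with a median of 1618 to 3259 UMIs per mouse against 4059 to 9103 in all other nuclei. The same barcode sequence occurred in more than 1 library for 2211 of 131768 distinct barcodes (1.68%) and for 4 of the 3849 distinct microglial barcodes. Scrublet scores likely doublets (nuclei that share a barcode), and the highest-scoring barcodes of each library were marked up to a rate preset by the number of its barcodes, 4.63% to 10.2% of them. Among microglial nuclei 5.56% to 21.8% per mouse were marked. RNA of other cell types was present in these nuclei. The 10 neuronal markers summed to 4288 to 8715 CPM (UMIs per 1000000 UMIs, summed over all microglial nuclei of a mouse), against a mean of 13639.6 CPM in the other nuclei. UMIs of the neuronal transcript Meg3 were found in 90.2% of microglial nuclei and in 88.8% of oligodendrocyte nuclei, and those of the synaptic gene Syt1 in 76.98% and 76.3%, although neither cell type is a neuron. The 8 oligodendrocyte markers summed to 535 to 2580.4 CPM, the 6 precursor markers to 155 to 874 CPM and the 8 astrocyte markers to 758 to 2478 CPM in microglia. The 8 endothelial and mural markers summed to 19.8 to 66.9 CPM. Among 12 markers of other leukocytes, whose sum was 3.95 to 27.2 CPM, S100a8, S100a9 and Ly6c2 were at 0 in every mouse.

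The 3 markers that the rule did not use followed it closely. Siglech, a sialic-acid-binding receptor (GRCm38 chr7:55768178-55778925), had 608 CPM ± 105 (SD, n = 15) in microglia and 4.17 CPM in other nuclei. Ly86, also called MD-1 (chr13:37345208-37419036), had 714 CPM ± 107 against 5.42 CPM. Runx1, a transcription factor of blood and macrophage lineages (chr16:92601466-92826149), had 646 CPM ± 123 against 5.27 CPM. UMIs of these genes were found in 80.8%, 80.0% and 77.5% of microglial nuclei (median 2394 UMIs) and in 0.460%, 0.467% and 0.307% of oligodendrocyte nuclei (median 2856 UMIs), whose share serves here as the level of free RNA. Oligodendrocyte nuclei were taken by at least 2 UMIs of Mog and Mag together and none of Csf1r or Inpp5d. Nuclei with free RNA of the rule genes were thus left out, which can lower the share of other microglial genes in this class. Every mouse showed the difference between microglia and the other nuclei, and the lowest ratio of these in a mouse was 95.1 for Siglech, 81.6 for Ly86 and 81.0 for Runx1. Without likely doublets the mean levels in microglia were 818, 951 and 863 CPM. The rule genes had 1424 CPM ± 215 for Inpp5d (chr1:87620312-87720507), a lipid phosphatase, and 779 CPM ± 132 for Csf1r, which restates how the nuclei were chosen.

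The limits of the rule passed through a continuum. The 251 nuclei just inside it, with 1 UMI of Csf1r and 2 of Inpp5d, had 1536 CPM of Siglech, Ly86 and Runx1 together, and the other 3602 had 1942 CPM. Just outside, the 507 nuclei with Csf1r and a single UMI of Inpp5d had 1565 CPM. The 736 nuclei with Inpp5d and no Csf1r had 1435 CPM, and the 148 with at least 2 UMIs of Csf1r and no Inpp5d had 942 CPM. All other 128742 nuclei had 8.67 CPM. Nuclei on either side of the limits thus held the same markers, and the other nuclei still include some of that kind, which draws the ratios given here towards 1.

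The 25 genes with the highest ratio of microglia to other nuclei, among those at 20 CPM or more and counted in every mouse, had ratios of 125 to 178. Of these, 8 were gene models without a given name. The named ones were, beside the rule genes, Siglech, Tmem273, Bin2, Susd3, Itgam, Csf3r, Fgd2, Nlrp1b, Ikzf1, Ly86, Cd37, Abi3, Rhoh, Selplg and Nlrp1a. Several act in adhesion and signalling of leukocytes. Itgam encodes the alpha chain of complement receptor 3 and had 318 CPM ± 53.9 against 2.36 CPM in other nuclei. Selplg, the ligand of P-selectin, had 477 CPM ± 115 against 3.78 CPM, and Csf3r, the receptor of granulocyte colony-stimulating factor, had 365 CPM ± 80.0 (ratio 135). The tetraspanin Cd37 had 133 CPM ± 32.6 (ratio 131) and Ikzf1, the transcription factor Ikaros, 695 CPM ± 118 (ratio 132). Nlrp1a (21.8 CPM ± 7.02) and Nlrp1b (141 CPM ± 36.0) encode inflammasome sensors and are close paralogs, so the division of UMIs between them is uncertain. These genes lead because nuclei were chosen by microglial transcripts, and no test was applied. Border-associated macrophages shared many of them: of the 15 named genes other than the rule genes, 10 were at least 2-fold higher in microglia than in those macrophages, 5 were not, and 0 were lower.

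Promoters of these leading genes are shown because PU.1, a factor that defines the lineage, binds purine-rich sites with a GGAA core. The 250 bases before each RefSeq start (GRCm38.p6) were searched on both strands for the letters GAGGAAGT. Of the 17 named genes, 13 had 15 promoter entries, and 4 of these entries (of Inpp5d, Cd37, Nlrp1a and Nlrp1b) held the letters. Inpp5d is a rule gene, and the promoters of the paralogs Nlrp1a and Nlrp1b, aligned on the match without gaps, had the same base at 172 of 237 positions. Among all 32851 promoters the letters occurred in 2.44%. The sequences of Inpp5d (chr1:87620062-87620311, plus strand), Cd37 (chr7:45238840-45239089, minus strand) and Nlrp1a (chr11:71144705-71144954, minus strand) are given 5′ to 3′ up to the base before the start, with the match in capitals.
Inpp5d: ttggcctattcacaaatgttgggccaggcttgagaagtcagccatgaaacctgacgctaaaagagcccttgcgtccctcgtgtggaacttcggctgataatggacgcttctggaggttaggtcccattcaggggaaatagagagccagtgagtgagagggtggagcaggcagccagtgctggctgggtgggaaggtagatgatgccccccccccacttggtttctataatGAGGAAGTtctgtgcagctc
Cd37: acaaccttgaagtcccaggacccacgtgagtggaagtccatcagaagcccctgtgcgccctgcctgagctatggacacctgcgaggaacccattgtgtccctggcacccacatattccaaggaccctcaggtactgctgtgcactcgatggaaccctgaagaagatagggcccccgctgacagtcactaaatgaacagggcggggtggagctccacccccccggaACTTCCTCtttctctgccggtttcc
Nlrp1a: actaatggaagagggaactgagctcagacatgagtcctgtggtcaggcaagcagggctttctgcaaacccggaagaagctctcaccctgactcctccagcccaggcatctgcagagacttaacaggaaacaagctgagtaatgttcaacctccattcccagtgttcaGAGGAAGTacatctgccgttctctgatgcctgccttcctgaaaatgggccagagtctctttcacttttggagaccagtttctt
The match began 20 bases before the start in Inpp5d, 83 before it in Nlrp1a, and 25 before it in Cd37, where it lay on the opposite strand. The leading genes were picked from these data, the match is a description of letters, and binding was not measured.

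**Figure D1:**
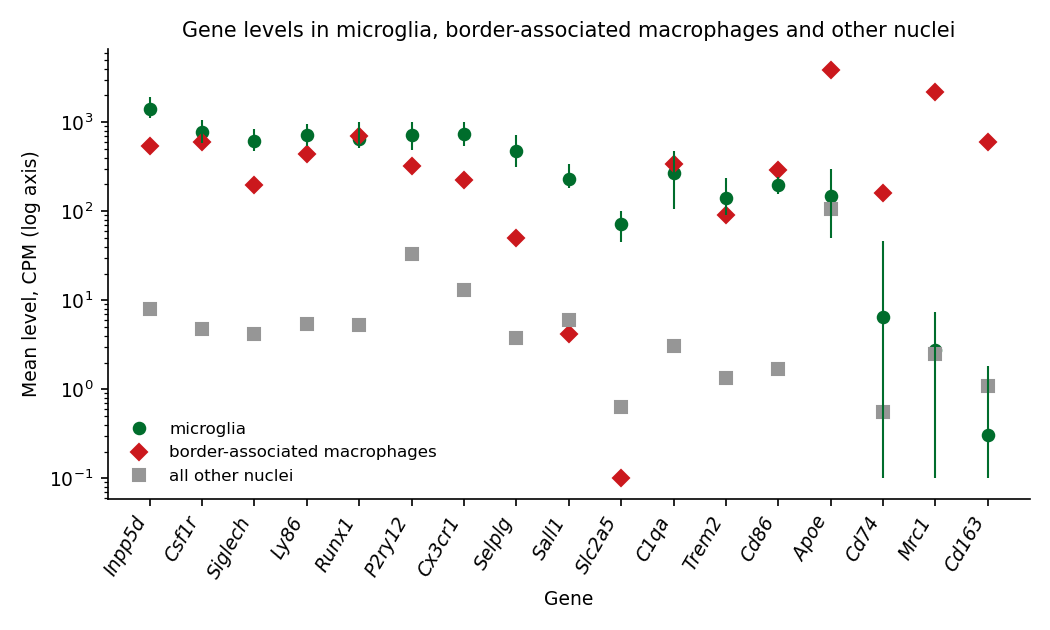
Mean CPM on a log axis for marker and state genes in microglia (with a line from the lowest to the highest of 15 mice), border-associated macrophages (mean of 11 mice) and all other nuclei (mean of 15 mice); a value of 0 is drawn at the lower end of the axis. Siglech sits at 608 CPM in microglia and 4.17 CPM in other nuclei, while Apoe is at 150.2 CPM in microglia and 3896 CPM in border-associated macrophages.

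Border-associated macrophages, the other resident macrophages of the brain, were represented by 183 nuclei selected by at least 2 UMIs of Mrc1 and F13a1 together, at least 1 of Csf1r and none of Gad1 or Gad2. Mean levels in them were formed over the 11 mice with at least 10 such nuclei. Mrc1 and F13a1 separate the classes by construction, and all values here are a description. Cd163, a scavenger receptor for haemoglobin complexes, had 599 CPM in macrophages and 0.310 CPM in microglia. The lectin Clec10a had 159.8 and 0.0791 CPM, Ms4a7 269.7 and 1.34 CPM, and the endocytic adaptor Dab2 1518 and 14.6 CPM. Aoah, Ms4a4a and Cd209g were on the same side. On the microglial side, Slc2a5, the fructose transporter GLUT5, had 72.2 CPM and no UMI in macrophages. Sall1, a transcription factor of microglial identity, had 231 CPM against 4.21 CPM, where the macrophage value rests on 3 UMIs. Sall3 (85.2 against 4.45 CPM), Ccdc192, Myo18b, Mlxipl and Spsb1 were also higher in microglia. Of the 8 markers of border-associated macrophages, Pf4 and Cbr2 had no UMI in microglia, Lyve1 and Cd163 had 3 and 4 UMIs in all, and Stab1 was present at 134 CPM ± 46.8 (macrophages 1239 CPM).

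The homeostatic programme was present throughout. Its 20 genes were each at least 2-fold higher in microglia than in other nuclei, and they summed to 9136 CPM ± 1514. After every nucleus was thinned to 1000 UMIs, which kept 3819 of the 3853, 94.3% of microglia held at least 3 UMIs of the list. Mertk, a receptor for the uptake of dying cells, had 1358 CPM ± 199, Cst3, the protease inhibitor cystatin C, 995 CPM ± 452, and Cx3cr1 744 CPM ± 147. P2ry12, the ADP receptor that directs processes to injury, had 712 CPM ± 119.6. In NP mice P2ry12 ranged from 585 to 998 CPM around a median of 773 CPM, in ControlPP mice it was 484, 635, 747 and 759 CPM, and in StressPP mice 597, 662, 708, 722 and 758 CPM. The 3 groups overlapped for this gene.

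All 16 identity transcription factors were at least 2-fold higher in microglia than in other nuclei. Mef2a (1479 CPM ± 194) and Mef2c (1105 CPM ± 83.7) had 215 and 252 CPM elsewhere. Irf8 (199 CPM ± 52.9) and Spi1 (151 CPM ± 42.97), the gene of PU.1, had 1.65 and 1.25 CPM elsewhere. Zfhx3 had 1755 CPM ± 351 and Fli1 677 CPM ± 117. Of the 15 genes of CSF1 and TGF-beta signalling other than the rule genes Csf1r and Inpp5d, 14 passed the same 2-fold limit. Tgfbr1, a TGF-beta receptor chain, had 1695 CPM ± 246 against 39.3 CPM in other nuclei and 459.5 CPM in border-associated macrophages, and Tgfbr2 had 382 CPM ± 61.9. Plcg2, a phospholipase in receptor signalling, had 255 CPM ± 54.7.

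Of 18 purinergic and motility genes, 13 were at least 2-fold above and 3 below the other nuclei. Srgap2, a regulator of cell protrusions, had 2234 CPM ± 262 against 224 CPM in other nuclei, with a UMI in 98.6% of microglia and 40.4% of oligodendrocytes, and Entpd1, the ectonucleotidase CD39, had 485 CPM ± 82.8. P2rx7, an ATP-gated channel, had 154 CPM ± 30.3 in microglia and 1002 CPM in border-associated macrophages. Among 12 complement genes, the C1q chains had 268 CPM ± 114 (C1qa), 224 CPM ± 87.4 (C1qb) and 205 CPM ± 76.9 (C1qc). C3 and Cd93 had 1 UMI each in all microglia, and C4b was at 2.90 CPM, below its 3.84 CPM in other nuclei. Phagocytic receptors were higher than elsewhere by 2-fold in 15 of 18 genes, among them Cd33 (157 CPM ± 27.9, ratio 120.2) and Sirpa (593 CPM ± 173, ratio 8.76). Of 20 lysosomal genes 19 passed that limit, including the proteases Lgmn (529 CPM ± 111), Ctss (357 CPM ± 71.97) and Ctsd (348 CPM ± 149).

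Genes of activated states had lower sums than the homeostatic list, although many lay above their level in other nuclei. At least 2-fold above other nuclei were 7 of 17 disease-associated, 14 of 19 interferon, 11 of 12 antigen presentation and 16 of 20 inflammatory genes. These counts include genes near the floor. Only 9, 8, 7 and 7 members had enough counts to be tested between groups. Of all 10413 genes so tested, 1902 passed the 2-fold limit. Of the disease-associated list, 17 of 18 genes were in the feature table, and 7 of them were below their level in other nuclei. Trem2 (141 CPM ± 46.7) and its adaptor Tyrobp (54.8 CPM ± 17.1) are also genes of resting microglia and made up part of the list's sum of 711 CPM ± 166. Other large parts were Ank, a pyrophosphate transporter, with 159 CPM ± 21.1 (223 CPM in other nuclei), the lipid carrier Apoe with 150.2 CPM ± 81.0 (106 CPM) and the tetraspanin Cd9 with 116 CPM ± 32.0 (17.0 CPM). Itgax had 2.12 CPM, Gpnmb 4.62 CPM, Igf1 5.74 CPM and Lpl 9.68 CPM, and Cst7 and Spp1 had 5 and 6 UMIs in all. Of thinned microglia, 6.44% held at least 3 UMIs of this list.

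In the interferon list, Trim30a had 90.05 CPM ± 24.9 and Parp14 48.0 CPM ± 15.3, while Ifit2 had 3.38 CPM and Ifitm3 2.13 CPM. At least 3 UMIs of the list were held by 81 thinned nuclei (2.12%). The costimulatory gene Cd86 had 195 CPM ± 24.0, but the MHC class II genes H2-Aa, H2-Ab1 and H2-Eb1 had 1.71, 3.04 and 2.78 CPM, against 72.1, 73.1 and 69.9 CPM in border-associated macrophages. In the inflammatory list, Nfkb1 had 251 CPM ± 43.3, the RNA sensor Tlr7 146 CPM ± 21.0 and the inflammasome gene Nlrp3 52.6 CPM ± 13.9. The cytokines Il6 and Tnf had 5.72 and 4.10 CPM, and Il10 and Il1rn had no UMI. Immediate early genes were low as well (Jun 28.1 CPM ± 8.55, Egr1 11.8 CPM ± 8.49). Cell-cycle genes summed to 43.2 CPM ± 18.5, with Top2a in 0.882% of nuclei and 10 thinned nuclei (0.262%) holding at least 3 UMIs of the list.

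Receptors for hormones and monoamines were described because the groups differ in reproductive history. The oestrogen receptor Esr1 had 31.1 CPM ± 8.29 in microglia, 4.00 CPM in other nuclei and 106 CPM in border-associated macrophages, with a UMI in 8.51% of microglia and 0.637% of oligodendrocytes. The beta-1 adrenergic receptor Adrb1 had 29.4 CPM ± 6.63 against 14.3 CPM in other nuclei. Tgm2, a transglutaminase that can attach monoamines to proteins (chr2:158116402-158146436), had 12.2 CPM ± 6.23 against 1.41 CPM elsewhere and 1.91 CPM in border-associated macrophages. These were among the 5 of 25 genes in the list at least 2-fold above other nuclei.

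Dopamine receptors were not detectable above free RNA in microglia. Drd1 had 1.87 CPM ± 1.75 and a UMI in 0.623% of microglial nuclei, against 4.89 CPM in other nuclei and 1.00% of oligodendrocytes. Drd2 had 2.503 CPM ± 2.66 and 0.727%, against 10.1 CPM and 1.13%. Drd3 and Drd5 had a UMI in 0.104% and 0.415% of microglia and in 0.157% and 0.542% of oligodendrocytes. Drd4 and the vasopressin receptor Avpr1a had no UMI, and the oxytocin receptor Oxtr had 2 in all 3853 nuclei. The prolactin receptor Prlr (7.96 CPM ± 8.96 against 17.8 CPM) and the progesterone receptor Pgr (12.7 CPM ± 4.08 against 24.4 CPM) were also below the other nuclei. Of 16 genes of the glucocorticoid list, 3 were at least 2-fold above and 10 below the other nuclei. The receptor Nr3c1 had 301 CPM ± 41.2 against 141 CPM elsewhere. Fkbp5, a co-chaperone of that receptor and a known glucocorticoid target (chr17:28399094-28517527), had 176 CPM ± 57.9 against 65.0 CPM. The mineralocorticoid receptor Nr3c2 had 566 CPM ± 129, below the 939.6 CPM of the other nuclei.

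The share of microglia among nuclei was compared between the groups, to ask whether reproductive experience or postpartum stress went with a different proportion of microglial nuclei. In NP mice microglia made up 2.56% to 3.40% of nuclei, with a median of 3.06% and a mean of 3.01% ± 0.317 (SD, n = 6). In ControlPP mice the shares were 2.57%, 2.64%, 2.69% and 3.24% (mean 2.79% ± 0.307, n = 4). In StressPP mice they were 2.42%, 2.49%, 2.60%, 3.01% and 3.73% (mean 2.85% ± 0.542, n = 5). All 3 groups overlapped.

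The differences in share were within the spread between mice, by exact permutation of the group labels, two-sided. ControlPP minus NP was −0.224 percentage points (p = 0.295 by exact permutation), StressPP minus ControlPP 0.0633 points (exact permutation p = 0.857) and StressPP minus NP −0.161 points (exact permutation p = 0.558), and p adjusted over the 3 exact tests was 0.838 or more. Within batches 2 and 3, ControlPP minus NP was −0.239 and −0.245 points, and StressPP minus ControlPP 0.466 and −0.159 points. StressPP minus NP was −0.487, 0.227 and −0.404 points in batches 1, 2 and 3. The sign of StressPP minus ControlPP rested on single mice, with −0.157 points without StressPP mouse 77 and −0.00740 points without ControlPP mouse 72. The 95% Wilson interval of a single mouse, which covers counting error only, was at its widest from 2.98% to 3.87%. With single mice left out, ControlPP minus NP ran from −0.376 points (without ControlPP mouse 66) to −0.147 points (without NP mouse 27), and StressPP minus NP from −0.381 points (without StressPP mouse 77) to −0.0541 points (without StressPP mouse 90). Other settings moved these differences too. ControlPP minus NP was −0.0735 points under a looser rule (Csf1r and Inpp5d together at least 2 UMIs). StressPP minus NP was −0.310 points in nuclei thinned to 1000 UMIs and −0.246 points with likely doublets removed. It was −0.101 points under a rule by Siglech, Ly86 and Runx1, and −0.0885 points in batches 2 and 3 only. The thinned setting used another rule, in nuclei of 1000 UMIs or more. That rule asked for at least 1 UMI of Csf1r or Inpp5d and none of Mrc1, F13a1, Gad1 or Gad2. Its mean share over all mice was 4.15%, against 2.90% under the main rule. StressPP minus ControlPP was 0.0170 points in thinned nuclei and 0.154 points in batches 2 and 3 only. A share cannot tell fewer microglia from more nuclei of other types.

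**Figure D2:**
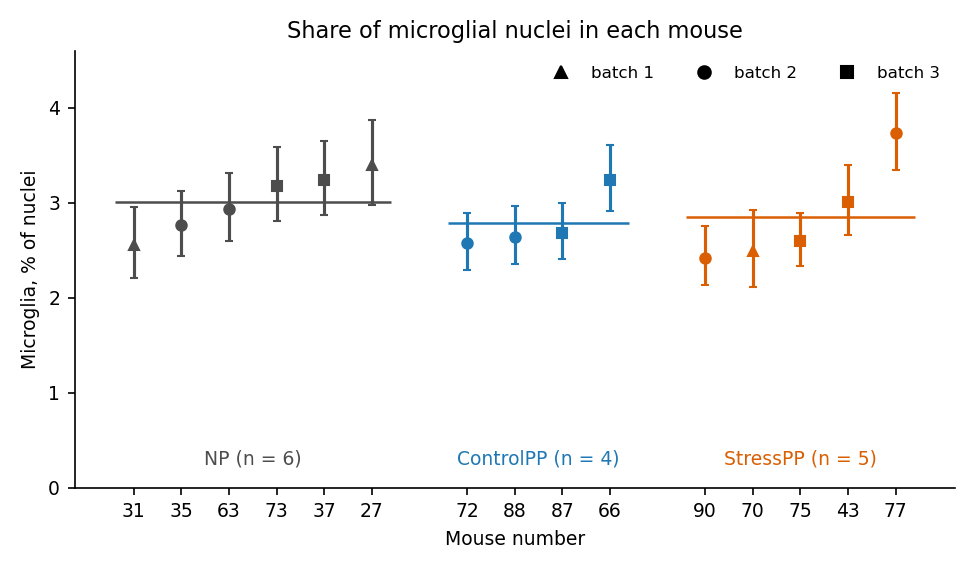
Percentage of nuclei with at least 400 genes that met the microglial rule (vertical axis) in each mouse (horizontal axis), by group, with marker shape for batch, 95% Wilson intervals and a line at each group's mean. The group means of 3.01%, 2.79% and 2.85% lie within the range of the individual mice of every group.

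Depth per nucleus bears on the rule, since it needs UMIs of 2 genes. The median microglial nucleus had 2108 to 3259 UMIs in NP mice, 1648 to 2396 in ControlPP mice and 1618 to 2964 in StressPP mice. On the log2 scale, ControlPP minus NP was −0.34 (exact permutation p = 0.0476, adjusted over 3 comparisons 0.143), with −0.38 in batch 2 and −0.27 in batch 3. The unadjusted p was above 0.05 when ControlPP mouse 72 or 88, or NP mouse 27, 31, 37, 63 or 73, was left out (exact permutation p up to 0.119). StressPP minus ControlPP was 0.18 (exact permutation p = 0.397) and StressPP minus NP −0.16 (exact permutation p = 0.381). With single mice left out the former ran from 0.06 (without ControlPP mouse 72) to 0.31 (without StressPP mouse 75), and the latter from −0.24 (without StressPP mouse 70) to −0.03 (without StressPP mouse 75). Relative to the other nuclei of each mouse they were 0.01 and −0.31, and StressPP minus ControlPP was 0.10 in batches 2 and 3 only.

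Gene expression was then compared between groups on counts summed per mouse over microglial nuclei (540728 to 1286239 UMIs per mouse). No gene of microglia differed detectably between the 3 groups in these libraries. Of 10413 genes tested by edgeR's quasi-likelihood test, 0 passed a Benjamini-Hochberg adjusted p of 0.05 in ControlPP minus NP, StressPP minus ControlPP or StressPP minus NP (0% called in each), and DESeq2 also called 0 in each. An unadjusted p under 0.05 was reached by 434 genes (4.17%), 207 genes (1.99%) and 507 genes (4.87%) by edgeR and by 441, 190 and 546 by DESeq2. Single mice moved these edgeR counts. Without NP mouse 63 they were 865 in ControlPP minus NP and 851 in StressPP minus NP, of 10296 genes tested, and in StressPP minus ControlPP the count was 409 without StressPP mouse 90 and 320 without ControlPP mouse 66. In ControlPP minus NP it was 281 with likely doublets removed, 282 in batches 2 and 3 only and 238 with the summed neuronal markers as a covariate. In simulated counts with the same library sizes, log2 changes of 1 were found for 59%, 50% and 57% of changed genes and log2 changes of 2 for 96%, 95% and 96%. Both sizes of change were planted together, and 167, 153 and 160 genes were called, of which 12, 8 and 7 were unchanged genes. The adjusted p depends on how many genes change, so these shares may be too high for data in which 0 genes passed. Between batches, with group in the model, 0 of 10413 genes passed by edgeR and 1418 had an unadjusted p under 0.05.

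No gene of the 15 microglial lists or of the 7 lists for other cell types passed in any comparison. In ControlPP minus NP, the median log2 fold change of all genes tested was −0.00, and that of the 20 homeostatic genes was −0.23, with 0 of 20 above 0. Lysosomal genes had a median of −0.23 (1 of 20 above 0), phagocytic receptors −0.25 (0 of 12), complement genes −0.21 (0 of 8), antigen presentation −0.61 (0 of 7) and interferon genes −0.48 (0 of 8). The groups overlapped in the sums of the last 2 lists. Interferon genes summed to 227 to 518 CPM in NP and 217 to 281 CPM in ControlPP mice. Antigen presentation genes summed to 247 to 507 and 285 to 394 CPM. Neuronal markers had a median of 0.25 with 10 of 10 above 0. Medians of the other cell types tested were below 0, at −0.07 for oligodendrocyte, −0.13 for precursor and −0.08 for astrocyte markers. Endothelial and mural markers had −1.04 (0 of 2 above 0), and the single border-associated macrophage marker tested had −0.31. In StressPP minus NP the homeostatic median was −0.14 (1 of 20 above 0), the interferon median −0.36 (0 of 8) and the neuronal median 0.41 (10 of 10). These 2 comparisons share the 6 NP mice. All tested genes at least 2-fold higher in microglia than in other nuclei had a median of −0.14 in ControlPP minus NP and −0.12 in StressPP minus NP. The homeostatic median of StressPP minus NP was thus near that of microglial genes in general. In StressPP minus ControlPP the homeostatic median was 0.06 (15 of 20 above 0), the lysosomal 0.16 (16 of 20), the disease-associated 0.38 (9 of 9), the antigen presentation 0.34 (6 of 7) and the neuronal 0.08 (7 of 10). Oligodendrocyte markers had a median of 0.40 there, with 8 of 8 above 0. The disease-associated median was −0.24 in ControlPP minus NP (2 of 9 above 0) and 0.14 in StressPP minus NP (7 of 9). That of antigen presentation in StressPP minus NP was −0.11 (1 of 7). Summed disease-associated genes overlapped, with 497 to 838 CPM in ControlPP and 474 to 1016 CPM in StressPP mice. Identity factors lay at −0.14, 0.04 and −0.14 in the 3 comparisons, CSF1 and TGF-beta signalling without the rule genes (as in all medians of this list given here) at −0.21, 0.05 and −0.12, and glucocorticoid-responsive genes at 0.06, −0.03 and 0.19. In both comparisons with NP mice the identity factors lay near the median of all genes higher in microglia, as did CSF1 and TGF-beta signalling in StressPP minus NP.

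Several of these medians were smaller once batch was taken into account. Batch 1, which held NP mice and no ControlPP mouse, had the highest mean sum of homeostatic (10834 CPM against 8196 and 9227 CPM in batches 2 and 3), lysosomal (5559.7 CPM against 3985 and 4453 CPM) and complement genes (2004 CPM against 1338 and 1620.5 CPM). The highest homeostatic sum of a single mouse was in batch 3 (NP mouse 37, 12277 CPM). Batch 1 held 2 NP mice and 1 StressPP mouse, so batch and group were partly confounded and cannot be fully told apart. With batch as a term, the ControlPP minus NP median was −0.12 for homeostatic genes (4 of 20 above 0), −0.12 for lysosomal genes (2 of 20), −0.15 for phagocytic receptors (1 of 12) and −0.08 for complement genes (0 of 8). In batches 2 and 3 only, the homeostatic median was −0.12 (4 of 20 above 0). Antigen presentation, interferon genes and neuronal markers had −0.45, −0.51 and 0.21 with batch as a term. Identity factors had −0.08, CSF1 and TGF-beta signalling −0.12, and glucocorticoid-responsive genes turned to −0.06. In StressPP minus ControlPP the same term gave 0.03 for homeostatic and 0.10 for lysosomal genes, while identity factors turned to −0.01 and CSF1 and TGF-beta signalling had 0.01. In StressPP minus NP the batch term gave −0.11 for homeostatic and 0.12 for glucocorticoid-responsive genes. The glucocorticoid-responsive median there was 0.01 with likely doublets removed. In StressPP minus ControlPP it turned to 0.01 in batches 2 and 3 only. With likely doublets removed, StressPP minus ControlPP medians were 0.11 for homeostatic genes, 0.20 for lysosomal genes and 0.15 for CSF1 and TGF-beta signalling. That of oligodendrocyte markers was 0.81.

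**Figure D3:**
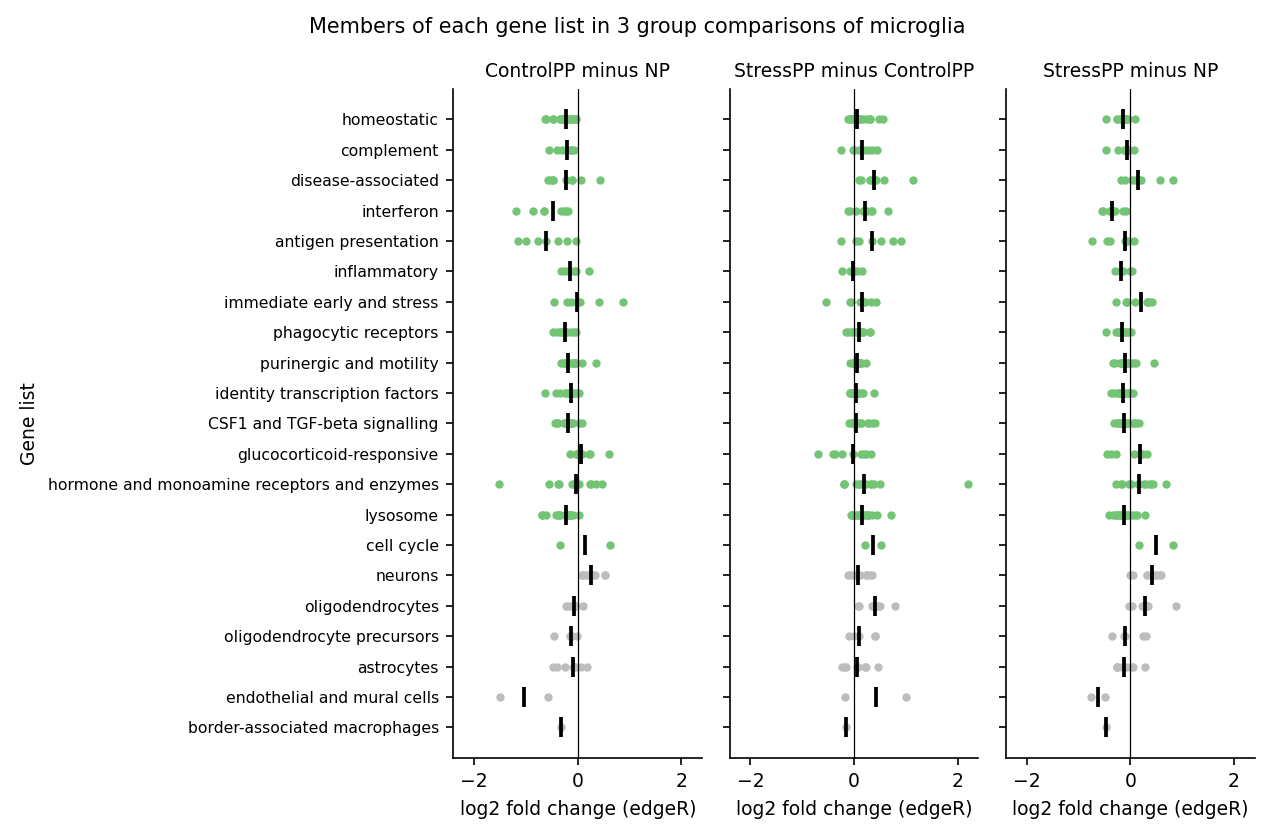
Log2 fold change by edgeR (horizontal axis) of each tested member of the gene lists (rows) in 3 group comparisons of microglia; green points are microglial lists, grey points lists of other cell types, and black bars the median of each list, which for CSF1 and TGF-beta signalling includes the rule genes Csf1r and Inpp5d. Homeostatic genes lie left of 0 in ControlPP minus NP (median −0.23, against −0.12 with batch as a term) and neuronal markers right of 0 (median 0.25), and no gene passed the test.

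In both comparisons with NP mice, most genes at least 2-fold higher in microglia lay below 0 and most genes lower in microglia above it. The fit centres the log2 fold changes of all genes tested near 0, so these 2 sides are not independent. Of 1902 tested genes at least 2-fold higher in microglia than in other nuclei, 445 (23.4%) had a log2 fold change above 0 in ControlPP minus NP and 459 (24.1%) in StressPP minus NP. Of 3915 genes lower in microglia than in other nuclei, 2668 (68.1%) and 2583 (65.98%) did. In StressPP minus ControlPP the shares were 54.5% and 47.0%. With batch as a term their order turned (48.1% and 50.4%), and with likely doublets removed they were 58.1% and 44.0%. CPM values share a total, so the levels of these sets are not independent of each other, and the part of neuronal RNA in the values was examined only through the alternatives given here. Summed neuronal markers were 5843 CPM ± 1492 in NP, 6827 CPM ± 948 in ControlPP and 6924 CPM ± 418 in StressPP mice, and the groups overlapped. NP mouse 37 had the lowest neuronal sum (4288 CPM) and the highest homeostatic sum (12277 CPM), and NP mouse 63 had the highest neuronal sum (8715 CPM) and the lowest homeostatic sum (6891 CPM). With the neuronal sum as a covariate, a fit chosen after seeing the data, the homeostatic median was −0.05 in ControlPP minus NP and −0.00 in StressPP minus NP. When the test was limited to genes at least 2-fold higher in microglia, also chosen after seeing the data, it was −0.08 and −0.01. The limited fit took its size factors from these 1902 genes alone. This brings their own median near 0 by construction (−0.0035 and −0.0002), so the move of the homeostatic median cannot be read apart from it. The interferon median was −0.36 and −0.50 in ControlPP minus NP under the covariate and the limited fit, and −0.17 and −0.27 in StressPP minus NP. With the covariate, ControlPP minus NP medians were −0.00 for complement genes (4 of 8 above 0), −0.10 for phagocytic receptors (4 of 12), −0.09 for lysosomal genes (3 of 20), −0.37 for antigen presentation (1 of 7), −0.08 for identity factors and −0.08 for CSF1 and TGF-beta signalling. In StressPP minus NP the covariate gave −0.05 for identity factors, −0.02 for CSF1 and TGF-beta signalling and 0.04 for glucocorticoid-responsive genes. The share of likely doublets among microglia was 11.5% ± 3.64 in NP, 16.5% ± 3.60 in ControlPP and 14.9% ± 5.54 in StressPP mice, where the preset rates over all barcodes had means of 6.20%, 8.58% and 7.14%, and the shares were not compared between groups. With them removed, the homeostatic median was −0.15 in ControlPP minus NP and −0.01 in StressPP minus NP, and the interferon median −0.24 and −0.19. The neuronal median was 0.23 and 0.41 with them removed, against 0.25 and 0.41 in the main fit. The share above 0 of genes at least 2-fold higher in microglia was then 34.7% and 41.4%, and that of genes lower in microglia 62.0% and 55.1%. With batch as a term the former was 27.4% and 25.8% and the latter 64.8% and 64.4%.

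**Figure D4:**
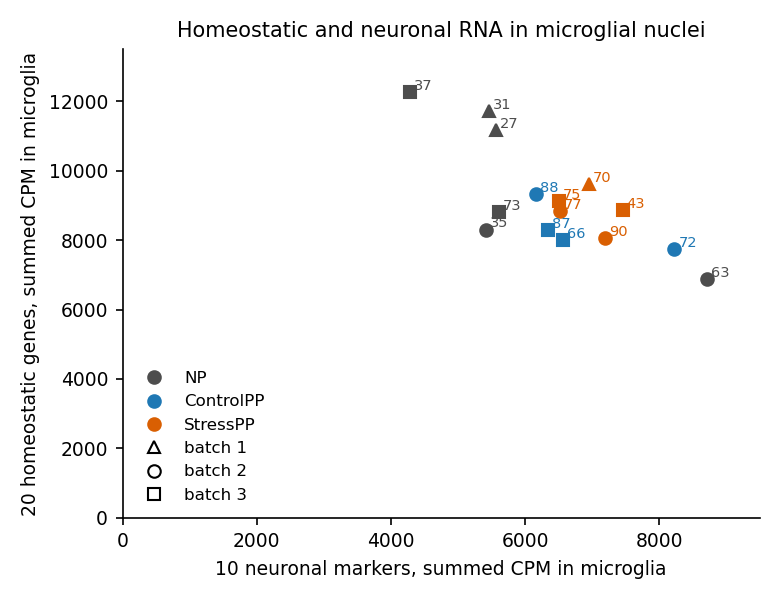
Summed CPM of 20 homeostatic genes (vertical axis) against summed CPM of 10 neuronal markers (horizontal axis) in the microglia of each mouse, labelled with the mouse number. NP mouse 37 lies at 12277 and 4288 CPM and NP mouse 63 at 6891 and 8715 CPM, the extremes of all 15 mice.

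The genes nearest to the threshold are given for each comparison as values that did not pass. They were picked by small p among 10413 genes, so a lack of overlap between groups is no further support for any of them. The share of all genes without overlap is not given. In ControlPP minus NP, the 5 with the smallest p among higher values were Miat, Cdh4, Grin1, Rdh10 and Calb1, and 4 of these 5 were below their level in other nuclei. Miat, a nuclear long noncoding RNA, had 56.3 to 75.8 CPM in NP mice (median 68.4 CPM) and 84.4, 89.6, 99.9 and 118 CPM in ControlPP mice, without overlap (log2 fold change 0.58, SE 0.14, edgeR adjusted p = 1.00). Its level in excitatory neurons was 245 CPM. Grin1 and Calb1 are neuronal genes too, encoding an NMDA receptor subunit and calbindin, and their log2 fold changes of 0.52 and 0.78 were 0.35 and 0.49 with likely doublets removed. The median of the 10 neuronal markers moved less, from 0.25 to 0.23. Among lower values the 5 were Tspan14, Trim30a, Slc29a3, Pigx and Parp9, of which 4 were at least 2-fold higher in microglia than in other nuclei. Trim30a, which interferon induces, had 70.1 to 129 CPM in NP mice (median 120.0 CPM) and 47.1, 72.5, 75.4 and 78.1 CPM in ControlPP mice (log2 fold change −0.64, SE 0.17, edgeR adjusted p = 1.00). Of the NP mice, mouse 63 alone lay within the ControlPP range. Parp9, also an interferon-responsive gene, had means of 49.7 CPM ± 9.05 and 33.7 CPM ± 2.78. Slc29a3, a lysosomal nucleoside transporter, had 127 CPM ± 32.8 and 79.3 CPM ± 6.44.

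In StressPP minus ControlPP, Rdh10 had the smallest p of all genes tested. Rdh10, a retinol dehydrogenase that starts the synthesis of retinoic acid (chr1:16105774-16133734), had 29.5, 29.7, 31.01 and 40.8 CPM in ControlPP mice and 11.3, 14.5, 15.0, 16.9 and 18.5 CPM in StressPP mice. These groups did not overlap, in a gene picked by its p, and NP mice had 14.4 to 27.3 CPM (median 21.9 CPM). The fit gave a log2 fold change −1.09, SE 0.22, edgeR adjusted p = 0.803. The log2 fold change was −0.70 with likely doublets removed, and Rdh10 was about as high in other nuclei as in microglia (ratio 1.1995). Fkbp5 had 141, 182, 217 and 319 CPM in ControlPP mice and 89.9, 121, 137, 152 and 171 CPM in StressPP mice, with 137 to 246 CPM in NP mice (median 177 CPM). The groups overlapped for Fkbp5 (log2 fold change −0.69, SE 0.23, edgeR adjusted p = 1.00), and without ControlPP mouse 88 the log2 fold change was −0.43. Ccnd3, which encodes cyclin D3 and was 20.4 times its level elsewhere, had means of 699 CPM ± 209 in ControlPP and 475 CPM ± 80.1 in StressPP mice. Zfp523 and Paqr9 completed the lower values, and Apbb1, Fnbp1l, Pigx, Wdr4 and Elovl1 were the higher ones. Pigx, of glycosylphosphatidylinositol anchor synthesis, had 3.72, 5.44, 7.90 and 14.8 CPM in ControlPP mice and 13.4, 14.1, 16.2, 18.6 and 22.9 CPM in StressPP mice, which overlapped. Pigx values this low rest on few UMIs per mouse.

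In StressPP minus NP, all 5 genes with the smallest p among higher values (Fhl2, Palmd, Cntnap5c, Cdc40 and Cacng8) were below their level in other nuclei. Cntnap5c, a neuronal adhesion gene, had 112 CPM ± 24.4 in NP and 174 CPM ± 29.3 in StressPP microglia against 403 CPM in excitatory neurons. Cacng8, an auxiliary subunit of AMPA receptors, had 43.1 CPM ± 9.35 and 73.2 CPM ± 22.3 against 174 CPM, and its log2 fold change of 0.76 was 0.31 with likely doublets removed. The median of the 10 neuronal markers was 0.41 with and without likely doublets. Among lower values were Kctd8, Bud23, Scube1, Snx8 and Rab27a. Kctd8, an auxiliary subunit of GABA-B receptors, had 23.7 to 198 CPM in NP mice (median 99.9 CPM) and 11.3, 12.1, 17.6, 18.5 and 48.5 CPM in StressPP mice (log2 fold change −2.32, SE 0.49, edgeR adjusted p = 0.965). Its level in other nuclei was above that in microglia (ratio 0.473), and it was the gene that passed when no filter on low counts was applied. Snx8, a sorting nexin (41.3 CPM ± 12.0 and 24.7 CPM ± 4.44), and Rab27a, which directs vesicle secretion (76.0 CPM ± 10.9 and 48.1 CPM ± 13.2), were at least 2-fold higher in microglia than elsewhere.

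Receptors and core genes of microglia did not pass either. Esr1 had means of 35.5, 26.9 and 29.1 CPM in NP, ControlPP and StressPP mice. Tmem119, a membrane protein used to mark microglia, had 84.5 to 231 CPM in NP mice (median 154 CPM), 84.1, 98.0, 107 and 108 CPM in ControlPP mice and 100.1, 110.1, 115, 118 and 119 CPM in StressPP mice. Its ControlPP minus NP difference did not pass (log2 fold change −0.63, SE 0.21, edgeR adjusted p = 1.00). C1qa had 139 to 479 CPM in NP mice (median 301 CPM), 106, 185, 238 and 273 CPM in ControlPP mice and 125, 227, 285, 334 and 409 CPM in StressPP mice, and the groups overlapped. Prlr had 0 to 16.5 CPM in NP mice, 0.777 to 5.93 CPM in ControlPP mice and 0.881 to 35.1 CPM in StressPP mice, at a mean level below that of other nuclei.

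**Figure D5:**
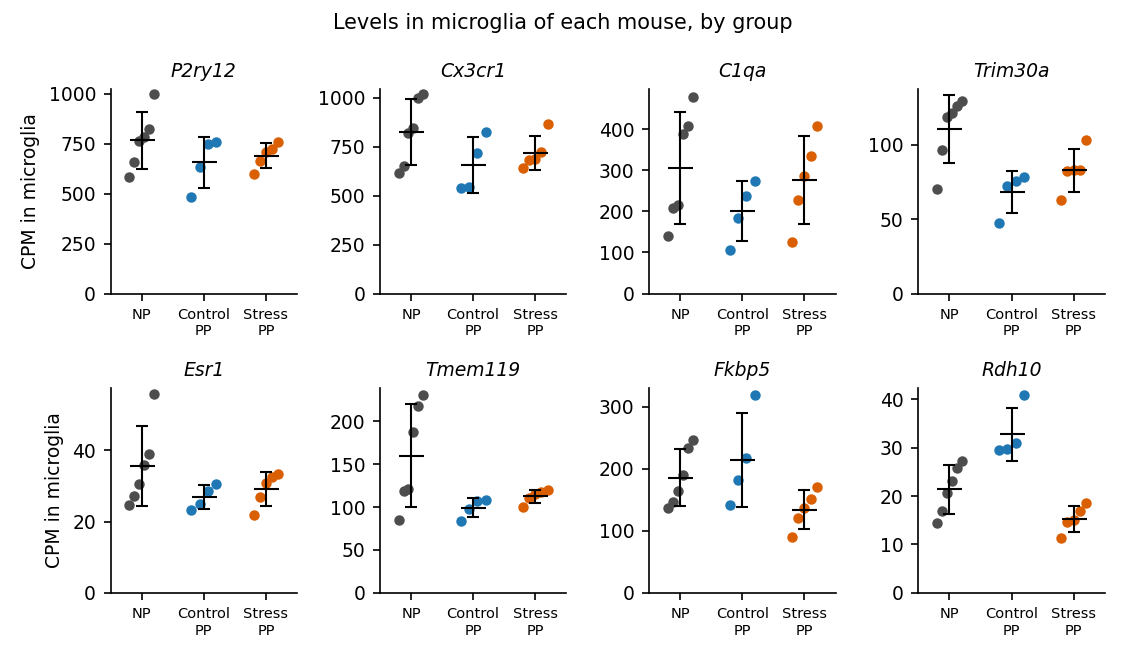
CPM in microglia (vertical axes) of 8 genes in each mouse, by group (6 NP, 4 ControlPP and 5 StressPP mice), with the mean and SD of each group as a bar. Rdh10, picked by its small p, shows ControlPP mice at 29.5 CPM or more and StressPP mice at 18.5 CPM or less. Fkbp5 overlaps between these groups, and none of the 8 genes passed the test.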

How the data were processed

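Single nuclei of dHF-enriched punches of 15 female mice were profiled with droplet 3′ RNA-seq, 1 library per mouse. The authors deposited filtered matrices of UMI counts per gene and barcode, made with Cell Ranger (7.1.0 per the submitters' processing notes, 7.0.0 per the file headers) and not normalized. The notes list the builds mm10 and GRCm39, and gene positions were taken from GRCm38 (GENCODE vM21; 59 of 59 named genes matched). Correction for free RNA and removal of doublets are not part of these counts.

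Microglia and the gene lists were chosen with earlier results of these data known. Counts of microglial nuclei were summed per mouse and given as CPM. The other nuclei are all nuclei with at least 400 genes outside the microglial rule. Oligodendrocytes had at least 2 UMIs of Mog and Mag together and excitatory neurons at least 2 of Slc17a7, both without Csf1r or Inpp5d. Groups were compared with edgeR 4.0.16 (filterByExpr, TMM, quasi-likelihood test, all 15 mice in 1 fit, Benjamini-Hochberg over all genes tested) in R 4.3.3, and with DESeq2 1.42.0 as an alternative. For shares and depth the mice were permuted between groups exactly, and p is two-sided. Scrublet was run in scanpy 1.11.5 and the highest scores were marked as likely doublets at a preset 0.8% per 1000 barcodes; marked nuclei were kept, and removed in an alternative. The edgeR step was tested on simulated data. Named genes were the markers, the 25 genes with the highest ratio to other nuclei, leading members of each list, and in each comparison the 5 genes with the smallest p in each direction, since none passed. Low members of the lists (such as Itgax, Il6, MHC class II genes, dopamine receptors and Tgm2) were named after their values were seen. Promoter sequences are from RefSeq. Total UMIs per library, and microglial UMIs per mouse, set the precision; intervals cover counting error only. Alternatives were other normalization, no filter on low counts, batch as a term, batches 2 and 3 only, other rules, doublets removed and leaving out each mouse. Values of some list members are not reported here. The authors' cell type calls and comparisons were not used here.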

Additional observations from a re-analysis of the deposited data

Results flagged for a closer look

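Each of these values lay far from the other mice of its group, with a gap to the nearest mouse above Dixon's 95% critical value for its share of the group's range. Of 150 groups of values examined, 12 (8%) met this, in 9 mice, and chance alone gives about 1 in 20. Microglial share was 3.24% in ControlPP mouse 66, the highest of its group, against 2.57 to 2.69% in the others. The summed level of interferon genes was 397 CPM in StressPP mouse 75, the highest of its group, against 245 to 281 CPM in the others. The summed level of antigen presentation genes was 247 CPM in NP mouse 63, the lowest of its group, against 409 to 507 CPM in the others. The summed level of glucocorticoid-responsive genes was 1838 CPM in StressPP mouse 90, the highest of its group, against 1235 to 1377 CPM in the others. Runx1 was 999 CPM in NP mouse 31, the highest of its group, against 592 to 739 CPM in the others. Rdh10 was 40.8 CPM in ControlPP mouse 88, the highest of its group, against 29.5 to 31.01 CPM in the others. Calb1 was 33.6 CPM in StressPP mouse 43, the highest of its group, against 16.9 to 21.6 CPM in the others. Slc29a3 was 69.8 CPM in ControlPP mouse 88, the lowest of its group, against 81.6 to 84.1 CPM in the others. Pigx was 20.3 CPM in NP mouse 31, the highest of its group, against 16.5 to 17.8 CPM in the others. That mouse had the fewest microglial UMIs (540728), so this value rests on few UMIs, and counting error did not enter the ratio. Ccnd3 was 893 CPM in NP mouse 31, the highest of its group, against 542 to 633 CPM in the others. Kctd8 was 66.3 CPM in ControlPP mouse 87, the highest of its group, against 21.1 to 24.9 CPM in the others. Kctd8 was 48.5 CPM in StressPP mouse 70, the highest of its group, against 11.3 to 18.5 CPM in the others.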

How the results depend on the processing

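All 416 values of single genes kept their direction and their side of the threshold with other size factors, by DESeq2, with batch as a term, with doublets removed and with single mice left out. These genes were picked by the smallest p in the same mice, so kept signs are no independent check, and the size of the changes was not judged. Of the share, depth and gene count comparisons, 154 values were kept. A further 9 lost their unadjusted exact permutation p under 0.05, 3 changed sign and 2 were gene counts that moved. The difference in share between StressPP and ControlPP turned to −0.0574 percentage points under a looser rule, and leaving out single mice gave −0.157 to 0.215 points. The lower depth of ControlPP against NP microglia was −0.31 on the log2 scale relative to the other nuclei (exact permutation p = 0.190), −0.32 in batches 2 and 3 only (exact permutation p = 0.114), and −0.41 to −0.23 with single mice left out (exact permutation p from 0.0159 to 0.119). With no filter on low counts, which raised the genes tested to 22851, 1 gene passed in StressPP minus NP, Kctd8 (log2 fold change −2.32, edgeR adjusted p = 0.00369), and 748 genes passed between batches. The cause of these shifts was not tested. Leaving out any single mouse gave 0 genes past the threshold in all 3 comparisons. No paired analysis was possible because the labels number the mice individually and the groups share no number. Whether depth, the spread between mice or their number set the limit of detection was not tested.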
